A study of Mus musculus with 10 samples.

Results

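Transcripts of 9 genes of insulin-like growth factor (IGF) and insulin signaling were followed in gastrocnemius muscle, a calf muscle, of desmin knock-out and wild-type mice. They were taken as a list of gene names, with no threshold on a value, and comprise the ligand gene Igf1, the receptor genes Igf1r and Insr, the adaptor gene Irs2, the binding protein genes Igfbp3, Igfbp4, Igfbp6 and Igfbp7, and Igf2bp2. All 9 were found among the 54232 Ensembl genes of the deposited RNA-seq table and all 9 passed the limit on expression used for testing. The study compared 5 homozygous knock-out mice (genotype Des -/-) with 5 wild-type mice (genotype Des wt/wt), both of the strain B6J.129Sv-Destm1Cba/Cscl. Mice were 3 months old, and per the study's methods the controls were littermates. In this line desmin, the main intermediate filament protein of muscle, is lost from all cells and at all ages, before birth included. Early and late effects of its loss therefore cannot be told apart. Although the methods mention pooling of RNA from 5 muscles, labels and table list every mouse separately, and each was used as 1 replicate. The paper also names the adjacent plantaris muscle beside gastrocnemius for these samples. The question was which transcripts of this growth pathway differ in muscle without desmin.

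IGF1 is made by liver under growth hormone and also locally in muscle, where muscle fibers, macrophages and connective tissue cells produce it. It binds the IGF1 receptor, whereas insulin binds the closely related insulin receptor. Both are tyrosine kinases that signal through the adaptors IRS1 and IRS2 to PI3K, Akt and mTOR, the best known route to protein synthesis and fiber growth in muscle, and Akt also restrains the FOXO factors of muscle atrophy. Secreted IGF-binding proteins hold IGFs in the matrix and in blood and release them when proteases cut them. IGFBP7 is a relative that binds IGFs only weakly. IGF2BP2 is no binding protein of this kind but an RNA-binding protein of the cytoplasm, named for its binding to Igf2 mRNA.

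The values are the regularized log (rlog) values that the authors made with DESeq2. Such values lie on a log2 scale, take account of library size and are shrunk, most of all for weakly expressed genes, so a difference understates the log2 fold change of counts. The depth behind each library is unknown, since no counts were used. As a check of the labels, Des had a mean of 16.58 with an SD of 0.67 in the 5 wild-type mice and of 11.84 with an SD of 0.057 in the 5 knock-out mice. The summed level of 10 muscle fiber markers (2 to the power of the rlog value) ranged from 5654500 to 6353900 in knock-out and from 6684400 to 12582000 in wild-type mice, and 1 of them was lower at an adjusted p under 0.05 (limma). Xist was between 0.56 and 0.77 and the mean of Y-linked transcripts between 9.52 and 10.62 in every mouse. Wild-type mouse 3 stood apart, with a mean correlation of 0.982 with the other wild-type mice, compared with at least 0.989 for each of the others. The sum of its values over all genes (2 to the power of the rlog value) was 1.48 times the median mouse. Its Des value was 17.74, while the other wild-type mice had 16.10 to 16.55. Pathway genes whose side of the threshold changed without this mouse are given with and without it.

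Of the 9 genes, 1 was higher and none was lower in desmin knock-out muscle at an adjusted p under 0.05 (limma, Benjamini-Hochberg adjustment over 14289 tested genes). Over all tested genes, 13.7% passed this threshold, 7.70% being higher and 5.99% lower. The gene that rose was Igf2bp2. In none of the 9 did the values of the genotypes lie fully apart, as they did in 14.4% of all tested genes. The median difference of the 9 genes was 0.054 on the log2 scale, compared with a median of -0.0029 over all tested genes. A p above the threshold does not show that levels were equal, and the 95% confidence intervals given with each gene show which differences remain possible.

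**Figure D1:**
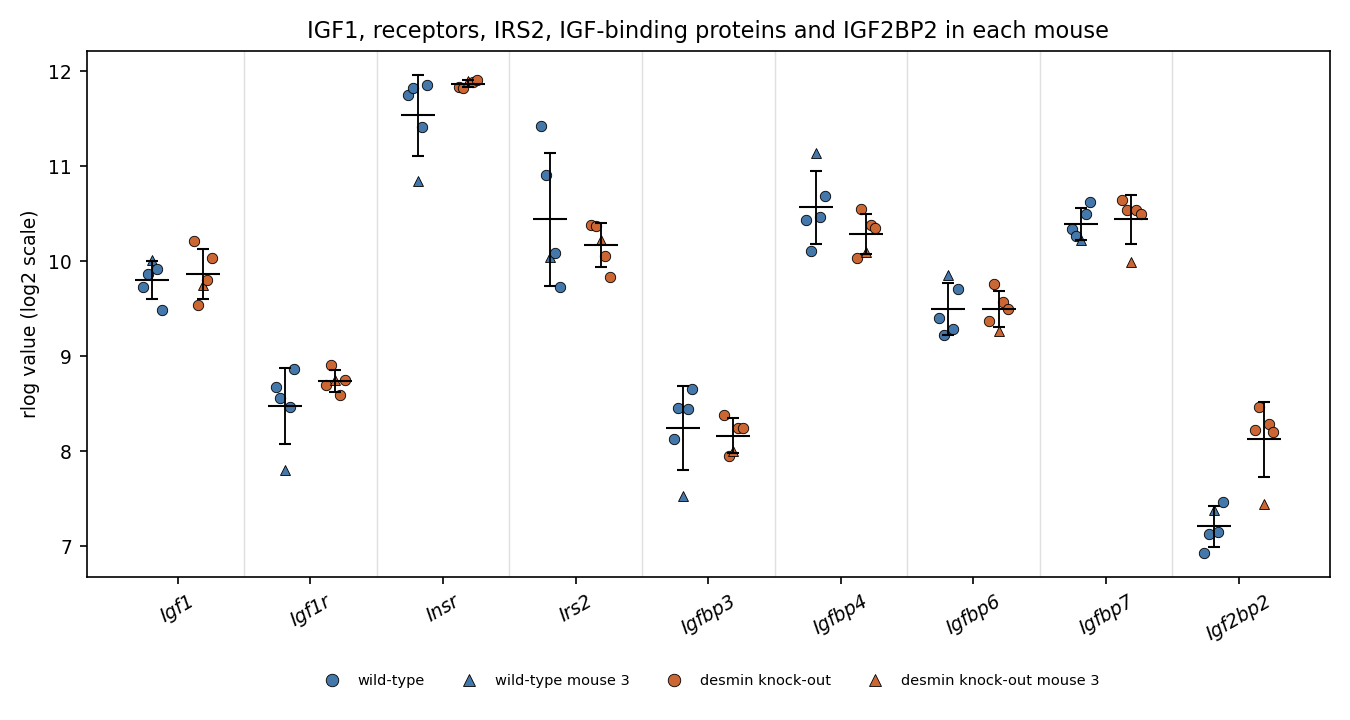
Points show the deposited rlog value (vertical axis, log2 scale) of each of 5 wild-type and 5 desmin knock-out mice for the 9 genes, with triangles for mouse 3 of each genotype, and bars show the mean and SD. Igf2bp2 is the only one of these genes in which 4 of 5 knock-out mice lie above every wild-type mouse, and wild-type mouse 3 is the lowest wild-type value of Igf1r, Insr, Igfbp3 and Igfbp7.

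Igf2bp2 (ENSMUSG00000033581) is on chromosome 16, 22059009 to 22163299, reverse strand (positions here and below are in GRCm38). Its protein binds mRNAs and is known to promote growth of myoblasts. The RefSeq promoter window of Igf2bp2, from 250 bases before to 50 bases after the start of the gene, is shown because this is the gene of the set that rose. It lies at chr16:22163250-22163549 (GRCm38.p6, reverse strand), and capitals mark the 2 matches to GGGCGG, searched on both strands and here read as its complement.

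Igf2bp2 promoter window: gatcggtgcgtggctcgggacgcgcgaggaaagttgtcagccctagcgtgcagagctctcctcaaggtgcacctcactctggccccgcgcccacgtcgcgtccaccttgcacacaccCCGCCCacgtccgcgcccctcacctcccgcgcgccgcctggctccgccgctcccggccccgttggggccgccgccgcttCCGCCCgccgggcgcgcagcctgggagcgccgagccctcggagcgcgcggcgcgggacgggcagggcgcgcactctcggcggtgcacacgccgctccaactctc

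The window consisted of G and C for 76.7%. Letters GGGCGG, which the general factor SP1 is known to bind, were also found in the windows of Igf1r, Irs2 and Igfbp7, and in 35.7% of all 32851 windows. A match is a description of the sequence only.

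In wild-type mice 1 to 5, Igf2bp2 had rlog values of 6.93, 7.13, 7.38, 7.15 and 7.47. In desmin knock-out mice 1 to 5 it had 8.23, 8.47, 7.44, 8.29 and 8.20. The genotypes overlapped only through knock-out mouse 3, which lay just below the highest wild-type mouse, while the other 4 knock-out mice were above all wild-type mice. Knock-out mice averaged 8.12 ± 0.40 (SD, n = 5), whereas wild-type mice averaged 7.21 ± 0.22 (SD, n = 5). This is a log2 difference of 0.91 (standard error, SE, 0.18, 95% confidence interval 0.53 to 1.29, adjusted p = 0.00346 from limma), or 1.88-fold on the rlog scale. An exact permutation test of the 10 values (two-sided) gave p = 0.0159, where the smallest p that 5 against 5 mice allow is 0.00794. Of all tested genes, 97.2% had a smaller absolute difference. The difference stayed between 0.83 and 1.08 with each mouse left out in turn, and its adjusted p (limma) stayed under 0.05 in all 18 alternatives. Without wild-type mouse 3 it was 0.96.

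The genes closest to Igf2bp2 in pattern were chosen by Pearson's r over the 10 mice. They were Wnt5b (r = 0.970), a Wnt ligand, Sag (r = 0.959) and Spsb4 (r = 0.957). Since part of such an r comes from the difference between genotypes, r was also taken from deviations from the genotype means, where Wnt5b had 0.962, Sag 0.859 and Spsb4 0.874. Without wild-type mouse 3, Wnt5b remained the closest gene (r = 0.978, 9 mice). The mice share their libraries across all genes, so these values are descriptive.

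Levels of markers of some other cell types moved between the genotypes, and in bulk muscle fewer cells of a type and less RNA per cell cannot be told apart. Over all tested genes, 7.70% were higher and 5.99% lower. Of 10 fibroblast markers, 5 were higher and none lower, with a summed level (2 to the power of the rlog value) of 16594 to 25219 in knock-out and 12769 to 23425 in wild-type mice. These 5 were Lum, Col1a1, Col1a2, Col3a1 and Mfap5. Pdgfra (log2 difference 0.078), Dcn (0.40), Dpt (0.16), Pi16 (-0.030) and Col15a1 (-0.14) did not pass. Of 6 tendon markers, 4 were higher, with summed levels of 7892 to 11386 and 3799 to 7733, and Tnmd, the tendon gene tenomodulin, had a log2 difference of 1.51 (adjusted p = 8.2e-04, limma). Of 10 endothelial markers, 5 were lower, with summed levels of 4993 to 6391 and 6314 to 7920. None of 10 macrophage, 6 adipocyte or 6 Schwann cell markers passed the threshold in either direction. Of 8 mural cell markers 1 was higher and 1 lower. Of 5 erythroid markers 2 were lower, with summed levels of 2874 to 4349 in knock-out and 4094 to 10602 in wild-type mice. Of 6 satellite cell markers only Chodl was higher (log2 difference 0.89, adjusted p = 0.00252, limma), while Pax7, the defining factor of these cells, had a difference of 0.015 (adjusted p = 0.956). No marker of these lists was at 0 in all mice. The part of cell composition in the difference of Igf2bp2 was not tested.

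Igf1 (ENSMUSG00000020053, chromosome 10, 87858265 to 87937042) encodes the ligand. Wild-type mice 1 to 5 had rlog values of 9.73, 9.86, 10.01, 9.91 and 9.49, and knock-out mice 1 to 5 had 10.21, 9.53, 9.75, 9.80 and 10.03. The ranges overlapped, with knock-out mice 1 and 5 above and the remaining 3 within the wild-type range. The log2 difference of 0.064 (SE 0.14, adjusted p = 0.795 from limma) was smaller than the SD of 0.26 between knock-out mice. Its 95% confidence interval ran from -0.23 to 0.35. The sign of this difference depended on single mice, since it was -0.023 without knock-out mouse 1 and -0.014 without wild-type mouse 5. The closest genes in pattern were Surf2 (r = 0.875), Cenpo (r = 0.867) and Cyp4v3 (r = 0.863).

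Igf1r (ENSMUSG00000005533, chromosome 7, 67952827 to 68233668), the receptor of IGF1, had 8.67, 8.56, 7.80, 8.47 and 8.86 in wild-type mice 1 to 5. In knock-out mice 1 to 5 it had 8.70, 8.91, 8.75, 8.59 and 8.75. All knock-out values but that of mouse 2 lay within the wild-type range, and wild-type mouse 3 was the lowest of all mice. The log2 difference was 0.27 (SE 0.16, 95% confidence interval -0.089 to 0.62, adjusted p = 0.322 from limma). Without wild-type mouse 3 it was 0.097. Hhipl1 (r = 0.982), Cog3 (r = 0.973) and Rnf170 (r = 0.972) were closest in pattern to Igf1r, with 0.911, 0.852 and 0.841 without that mouse.

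Insr (ENSMUSG00000005534, chromosome 8, 3122061 to 3279617), which encodes the insulin receptor, showed the narrowest spread of the 9 genes in knock-out muscle. Its values were 11.83, 11.83, 11.90, 11.88 and 11.90 in knock-out mice 1 to 5, with an SD of 0.038. In wild-type mice 1 to 5 they were 11.75, 11.82, 10.84, 11.41 and 11.85, with an SD of 0.43, or 0.20 without mouse 3. Wild-type mice 3 and 4 were low, and the 3 other wild-type mice were close to the knock-out mice. The log2 difference of 0.33 (SE 0.16, 95% confidence interval -0.022 to 0.69) did not pass over all genes (adjusted p = 0.211 from limma), although an exact permutation test of the 10 values alone, not adjusted, gave p = 0.0317. Without wild-type mouse 3 the difference was 0.16 (adjusted p = 0.251 from limma). Tmem245 (r = 0.990), Zfp280c (r = 0.987) and Rock1 (r = 0.987) were closest in pattern to Insr, with 0.943, 0.931 and 0.934 without that mouse.

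Irs2 (ENSMUSG00000038894, chromosome 8, 10984681 to 11008458) encodes an adaptor that both receptors phosphorylate, and its transcript is known to respond quickly to fasting and feeding. It varied most of the 9 genes between wild-type mice, which had 11.43, 10.91, 10.05, 10.09 and 9.73. Knock-out mice 1 to 5 had 10.38, 10.37, 10.22, 10.06 and 9.84. Wild-type mice 1 and 2 were above all other mice, and all 5 knock-out mice lay within the wild-type range. The log2 difference was -0.27 (SE 0.27, 95% confidence interval -0.84 to 0.30, adjusted p = 0.548 from limma). It was -0.021 without wild-type mouse 1 and -0.45 without wild-type mouse 5. Sample weights (limma's arrayWeights) turned it into -0.78 with an adjusted p of 0.00955. They gave little weight to wild-type mice 3 (0.10) and 4 (0.27) and the most to knock-out mice 4 (4.21) and 5 (3.22). Those were the lowest knock-out mice for Irs2. Among wild-type mice, the weights were highest for mice 1 (1.77) and 2 (2.19). Leaving out only wild-type mouse 3 gave -0.37 (adjusted p = 0.411, limma), and leaving out only wild-type mouse 4 gave -0.36 (adjusted p = 0.459, limma). The closest genes in pattern were Fibin (r = 0.930), Mapk6 (r = 0.926) and Zfp516 (r = 0.913). A transcript on the opposite strand, 9530052E02Rik, shares 162 exonic bases with Irs2. The library kit keeps strand, but whether reads were counted by strand is not given in the sources used here, so reads of this stretch could belong to either gene.

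**Figure D2:**
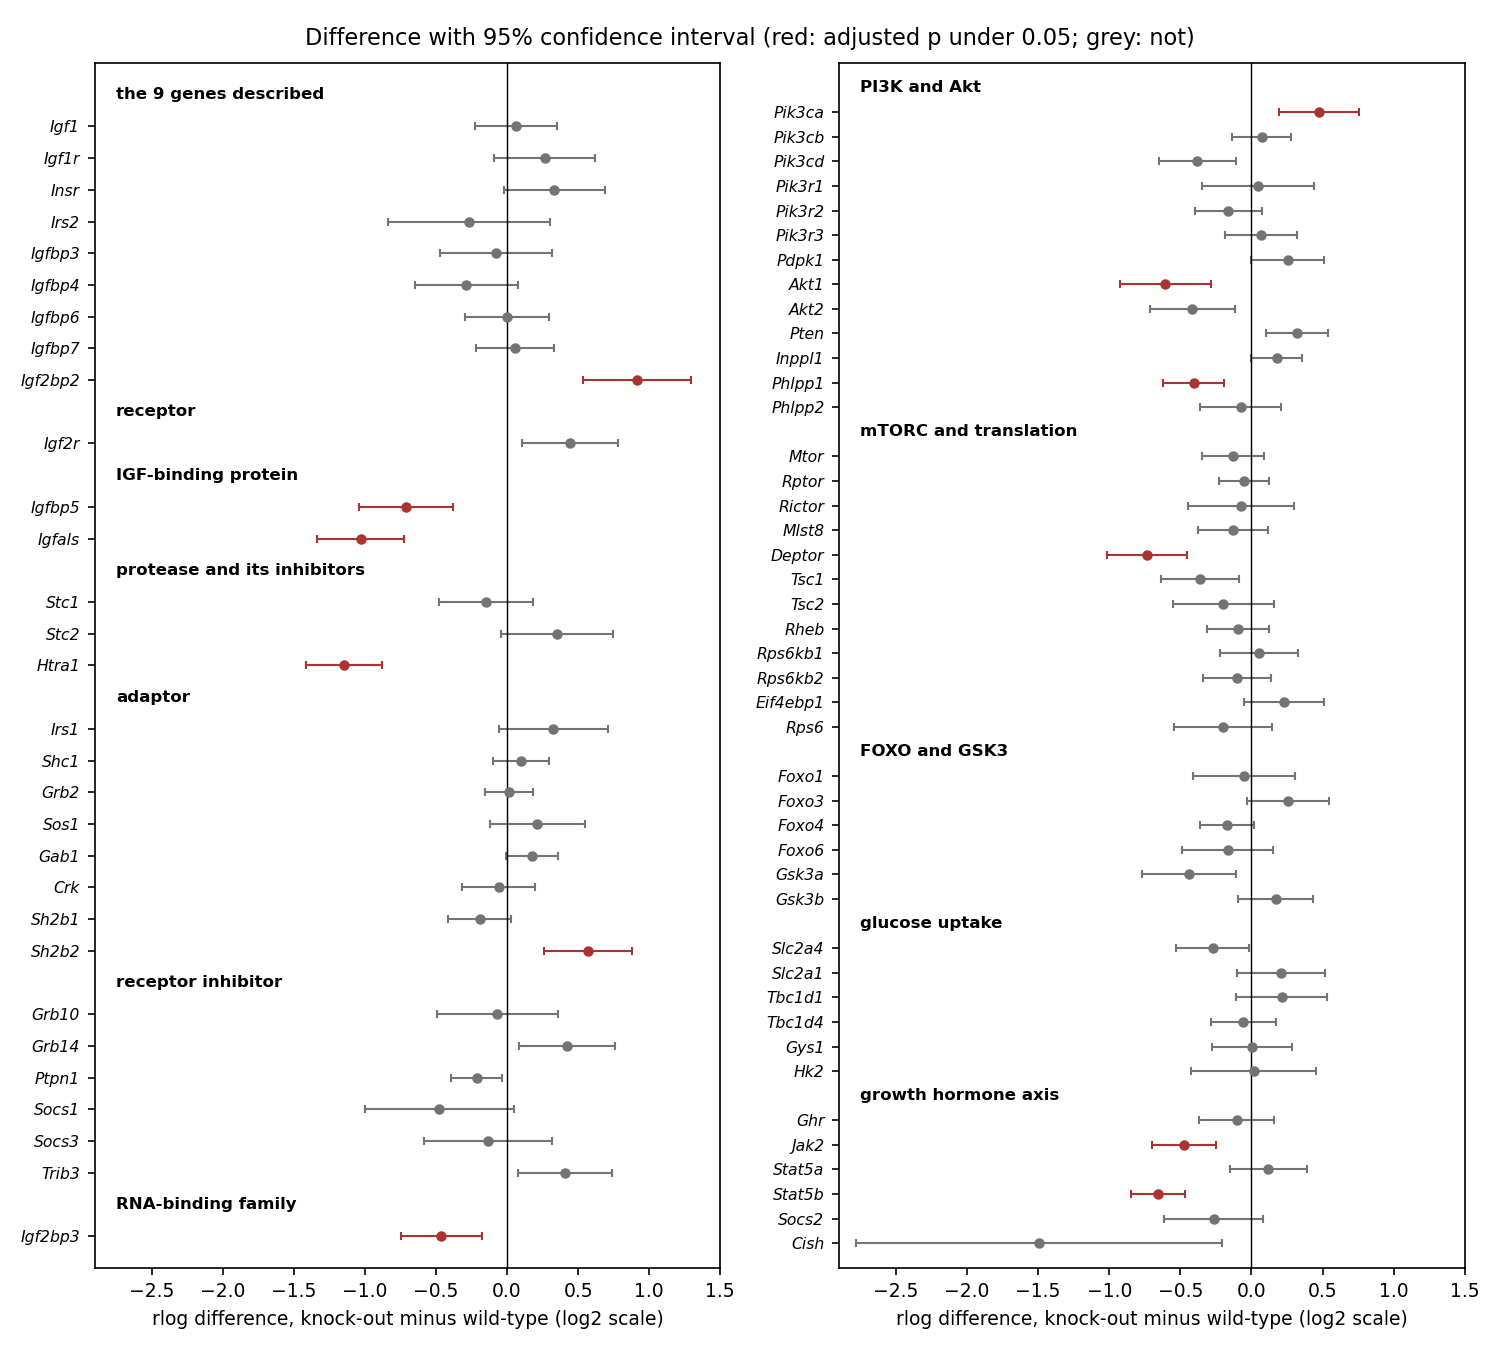
Points show the rlog difference between 5 desmin knock-out and 5 wild-type mice (horizontal axis, knock-out minus wild-type, log2 scale) with its 95% confidence interval, for the 9 genes and for 64 other tested genes of the pathway grouped by role. Red marks an adjusted p under 0.05, which 1 of the 9 genes and 11 of the others reached, 9 of these 11 on the left of 0.

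Among the binding proteins, Igfbp3, Igfbp4, Igfbp6 and Igfbp7 showed no difference past the threshold in either direction. Igfbp3 (ENSMUSG00000020427, chromosome 11, 7206086 to 7213923), the main carrier of IGFs in blood, had 8.13, 8.46, 7.52, 8.44 and 8.65 in wild-type and 8.38, 7.95, 8.001, 8.24 and 8.24 in knock-out mice 1 to 5. The knock-out values all lay within the wild-type range, whose lower end was mouse 3. The log2 difference was -0.078 (95% confidence interval -0.47 to 0.32, adjusted p = 0.816 from limma), and -0.26 without that mouse (adjusted p = 0.175). The closest gene in pattern to Igfbp3 was Rnf168 (r = 0.957, or 0.908 without that mouse), followed by Cc2d2a (r = 0.951) and Uimc1 (r = 0.948).

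Igfbp4 (ENSMUSG00000017493, chromosome 11, 99041244 to 99054392), which mainly inhibits IGF action until it is cut, had 10.43, 10.11, 11.14, 10.47 and 10.69 in wild-type mice and 10.04, 10.55, 10.10, 10.38 and 10.35 in knock-out mice. Knock-out mice 1 and 3 lay just below all wild-type mice, and wild-type mouse 3 was the highest of all. The log2 difference of -0.28 (95% confidence interval -0.64 to 0.074, adjusted p = 0.293 from limma) was -0.14 without wild-type mouse 3. Rnf130, St8sia5 and Lasp1 (r = 0.941 each) were closest in pattern to Igfbp4, with 0.866, 0.847 and 0.890 without that mouse.

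Igfbp6 (ENSMUSG00000023046, chromosome 15, 102144362 to 102149511), which prefers IGF2 over IGF1, had 9.40, 9.23, 9.85, 9.28 and 9.71 in wild-type mice. In knock-out mice it had 9.37, 9.76, 9.27, 9.57 and 9.50, all within the wild-type range. The means were nearly equal, with a log2 difference of 0.0012 and a 95% confidence interval of -0.29 to 0.30, so a difference of more than 0.30 in either direction on this scale lies outside the interval. Mxra7 (r = 0.961) and Kdelr3 (r = 0.949) were closest in pattern to Igfbp6 and were also the closest pair of genes without wild-type mouse 3.

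Igfbp7 (ENSMUSG00000036256, chromosome 5, 77349240 to 77408041), known from the walls of blood vessels, had 10.33, 10.26, 10.23, 10.50 and 10.62 in wild-type mice. In knock-out mice it had 10.65, 10.54, 9.99, 10.54 and 10.49. Knock-out mouse 3, which was also the lowest knock-out mouse for Igf2bp2 and Igfbp6, was the lowest of all, and the other 4 lay in the upper part of the wild-type range or just above it. The log2 difference was 0.054 (95% confidence interval -0.22 to 0.33, adjusted p = 0.817 from limma), and 0.17 without knock-out mouse 3. An RNA polymerase II subunit gene on the opposite strand, Polr2b, shares 85 exonic bases with Igfbp7. The closest genes in pattern were Apol10b (r = 0.940), the collagen gene Col5a1 (r = 0.932) and Ifi209 (r = 0.924).

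Wild-type mouse 3 moved these genes in both directions. Compared with the mean of the other 4 wild-type mice, its rlog value was lower by 0.90 for Igfbp3 (a difference of -0.90), by 0.87 for Insr (-0.87), by 0.84 for Igf1r (-0.84) and by 0.49 for Irs2 (-0.49). It was higher by 0.72 for Igfbp4, 0.45 for Igfbp6 and 0.26 for Igf1. For Irs2, mouse 3 (10.05) was not the lowest wild-type mouse, as mouse 5 had 9.73. The other 4 wild-type mice had an SD of 0.77 for Irs2. Over 14282 tested genes, Spearman's rho between exonic length and the deviation of wild-type mouse 3 from the other wild-type mice was -0.322. This value is across genes of 1 mouse and carries no p. The same value was -0.216 for wild-type mouse 4 and between 0.258 and 0.365 for the other wild-type mice, and these values are linked since each mouse is set against the others. The exonic lengths of Igf1r (16791 bases) and Insr (13746 bases) were the longest and those of Igfbp6 (1112 bases) and Igfbp7 (1209 bases) the shortest of the set. The order of lengths was not that of the deviations, since Igfbp3 (3130 bases) was the lowest, Igf1 (9904 bases) was higher and Igfbp7 was lower (-0.20) in this mouse. The part of transcript length or of RNA quality in these values was not tested.

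**Figure D3:**
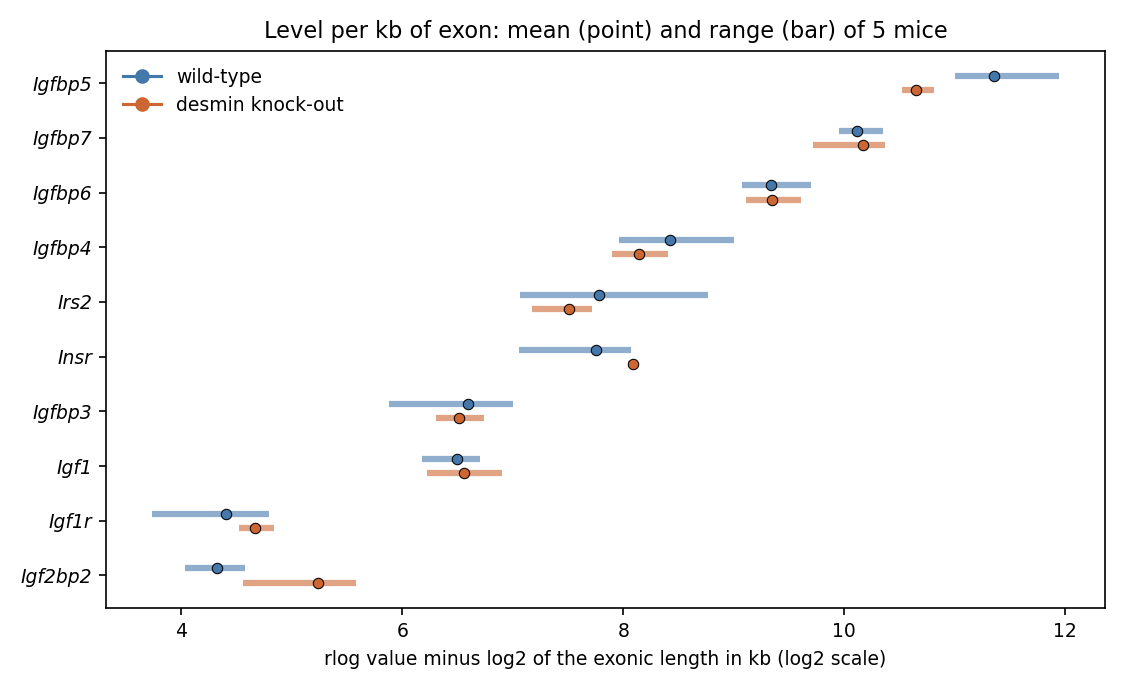
Points show the mean and bars the range of 5 mice for the rlog value minus log2 of the exonic length in kb (horizontal axis, log2 scale), for the 9 genes and Igfbp5, in wild-type and desmin knock-out muscle. Igfbp5 is the highest and Igf2bp2 and Igf1r are the lowest in both genotypes, and the bars of Igfbp5 in the 2 genotypes do not overlap.

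To compare levels between genes, log2 of the exonic length in kb was subtracted from the rlog value. On this length-corrected scale, the 9 genes of wild-type muscle were ordered from Igfbp7 (10.11 ± 0.17, SD, n = 5) and Igfbp6 (9.34 ± 0.27) over Igfbp4 (8.42 ± 0.38), Irs2 (7.78 ± 0.70) and Insr (7.76 ± 0.43) to Igfbp3 (6.59 ± 0.44), Igf1 (6.49 ± 0.20), Igf1r (4.41 ± 0.40) and Igf2bp2 (4.32 ± 0.22). Ranges of neighbours overlapped between Igfbp4 and Irs2, Irs2 and Insr, Igfbp3 and Igf1, and Igf1r and Igf2bp2, so that the order within these pairs is not resolved. Insr thus lay above Igf1r in every mouse, as the length-corrected range of Insr in wild-type mice (7.06 to 8.07) was above that of Igf1r (3.73 to 4.79). In knock-out muscle Igf2bp2 (5.24 ± 0.40) had moved to a mean above Igf1r (4.67 ± 0.11), with ranges that still overlapped. Insr came before Irs2 there, without overlap. Igf1 (6.56 ± 0.26) had a mean just above Igfbp3 (6.52 ± 0.18), but their ranges overlapped, so the order of this pair is not resolved.

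The other genes of the pathway were described from a list of 78 genes, of which 64 were tested. Of these, 2 (3.12%) rose and 9 (14.1%) fell in muscle without desmin at an adjusted p under 0.05 (limma), beside 7.70% and 5.99% of all tested genes. The median log2 difference of the 64 genes was -0.075. The counts depended on wild-type mouse 3, without which 5 were higher and 12 lower. Sample weights gave 8 higher and 21 lower. Counts over all 14289 tested genes moved as well, from 1100 higher and 856 lower to 1335 and 1161 without this mouse. With sample weights they were 2093 higher and 2127 lower.

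**Figure D4:**
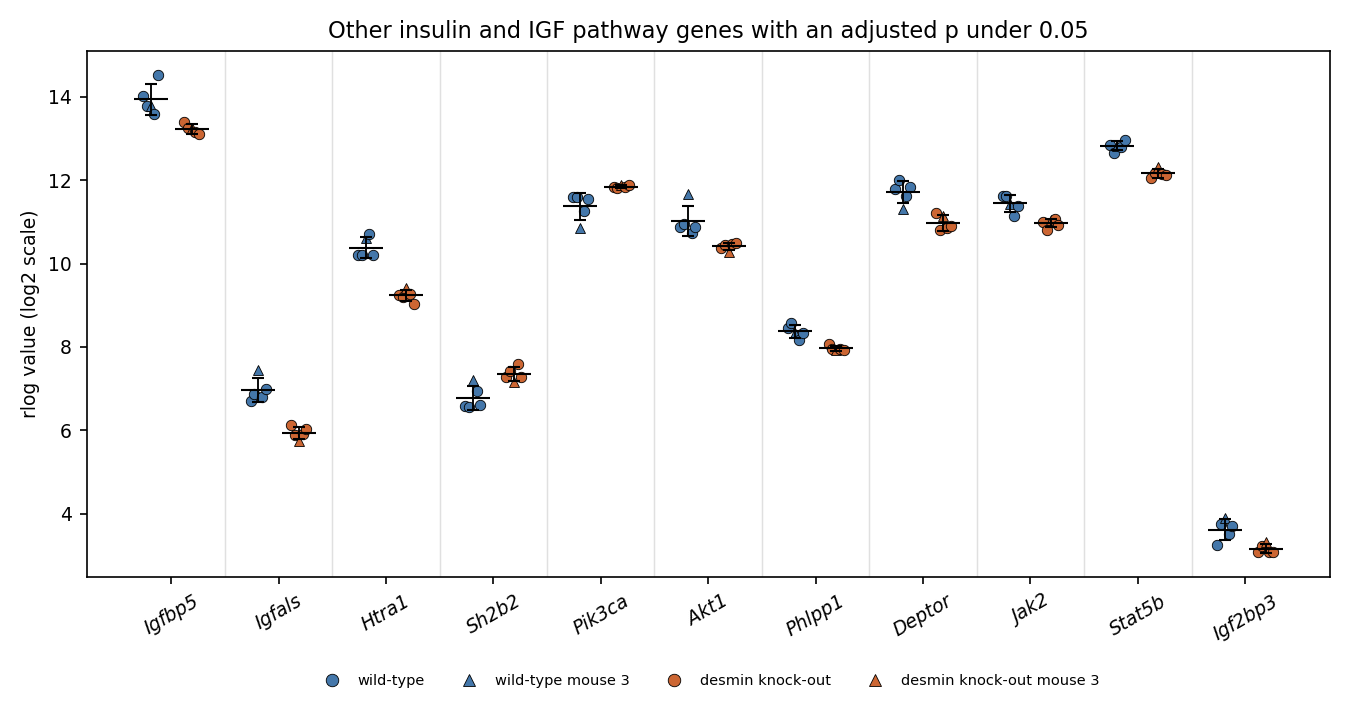
Points show the rlog value (vertical axis, log2 scale) of each mouse for the 11 other pathway genes with an adjusted p under 0.05, with triangles for mouse 3 of each genotype and bars for the mean and SD of 5 mice. Sh2b2 and Pik3ca are higher and the other 9 lower in knock-out muscle, and Igfals, Htra1 and Stat5b show a wide gap between the genotypes.

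No other ligand gene was tested. Igf2 had low values between 2.59 and 3.29 in all mice, Ins2 was negative in all mice, and Ins1 was listed at 0. Of the other receptor genes, Igf2r, the scavenger receptor of IGF2, was at 11.55, 11.74, 10.74, 11.60 and 11.57 in wild-type and 12.02, 11.89, 11.88, 11.81 and 11.81 in knock-out mice 1 to 5. All knock-out values lay above all wild-type values, but the log2 difference of 0.44 (SE 0.16) did not pass over all genes (adjusted p = 0.0827 from limma), and without wild-type mouse 3 it was 0.27 (adjusted p = 0.0169). Insrr was under the limit on expression, with at most 1.10.

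Both tested binding protein genes outside the set fell. Igfbp5 (ENSMUSG00000026185, chromosome 1, 72857932 to 72874884), known as the most abundant binding protein of muscle fibers, had 14.03, 13.78, 13.78, 13.59 and 14.53 in wild-type and 13.40, 13.25, 13.25, 13.15 and 13.11 in knock-out mice 1 to 5. The genotypes did not overlap, and the log2 difference was -0.71 (SE 0.15, adjusted p = 0.00703 from limma). On the length-corrected scale Igfbp5 was above all 9 genes in both genotypes. Igfbp5 lies 2.49 Mb from the targeted gene Des. Sequence near Des that came with the targeted allele and the loss of desmin cannot be told apart for this gene. Igfals, which encodes the acid-labile subunit that stabilizes IGF complexes in blood, had 6.71, 6.88, 7.44, 6.79 and 6.99 in wild-type mice. In knock-out mice it had 6.12, 5.88, 5.74, 5.91 and 6.04, again without overlap (log2 difference -1.03, SE 0.14, adjusted p = 2.8e-04 from limma). Igfbp2 (2.42 to 2.88) and Igfbpl1 were under the limit on expression, and Igfbp1 was listed at 0.

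Of the protease genes and their inhibitors, Htra1, a secreted serine protease known to cut binding proteins such as IGFBP5, had the largest difference past the threshold of the pathway list. It had 10.20, 10.20, 10.61, 10.70 and 10.21 in wild-type mice and 9.24, 9.20, 9.42, 9.28 and 9.03 in knock-out mice 1 to 5. No values overlapped, and the log2 difference was -1.15 (SE 0.12, adjusted p = 3.5e-05 from limma). Stc1 and Stc2, inhibitors of the pappalysin proteases, did not pass (log2 differences -0.15 and 0.35). Pappa and Pappa2 were under the limit on expression.

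Growth hormone acts on IGF1 through the kinase JAK2 and the factor STAT5B. Stat5b had 12.85, 12.66, 12.83, 12.80 and 12.96 in wild-type and 12.04, 12.17, 12.32, 12.14 and 12.13 in knock-out mice 1 to 5, without overlap. Its log2 difference was -0.66 (SE 0.088, adjusted p = 2.1e-04 from limma). Jak2 was lower as well, with a log2 difference of -0.47 (SE 0.10, adjusted p = 0.00844) and no overlap. The other 4 genes of this axis, Ghr, Stat5a, Socs2 and Cish, did not pass. Without wild-type mouse 3, however, Cish had a log2 difference of -1.91 with an adjusted p of 0.0277 (limma). With sample weights Cish (adjusted p = 4.7e-05), Ghr (0.0258) and Socs2 (0.0407) were lower. That setting was not particular to this axis, since 29 of the 64 pathway genes and 4220 of all 14289 tested genes passed with it. Among them were genes of roles in which none passed in the main fit, such as Socs1 (adjusted p = 0.00279, limma), Grb14 (0.00437) and Foxo4 (0.00253). STAT5 is known to bind TTCNNNGAA, and Igfals is a known target in liver, so its windows are shown with this motif, searched on both strands, in capitals. They lie on the forward strand of chromosome 17 at chr17:24877594-24877893 and chr17:24877981-24878280 (GRCm38.p6, RefSeq).

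Igfals first window: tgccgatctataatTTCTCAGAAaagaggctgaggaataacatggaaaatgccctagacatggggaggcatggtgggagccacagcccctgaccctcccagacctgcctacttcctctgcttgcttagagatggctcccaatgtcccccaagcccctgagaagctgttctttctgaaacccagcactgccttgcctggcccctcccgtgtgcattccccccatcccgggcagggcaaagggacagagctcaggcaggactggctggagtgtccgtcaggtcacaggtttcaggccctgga
Igfals second window: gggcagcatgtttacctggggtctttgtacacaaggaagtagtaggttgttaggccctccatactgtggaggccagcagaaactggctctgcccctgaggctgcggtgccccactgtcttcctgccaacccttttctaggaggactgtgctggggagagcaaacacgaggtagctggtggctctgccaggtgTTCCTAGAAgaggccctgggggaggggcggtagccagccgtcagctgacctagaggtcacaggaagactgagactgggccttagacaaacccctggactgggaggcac

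The other window of Igfals held no match. The window of Cish, which did not pass, held 2 matches, and those of Igfbp5 and Htra1, which were lower, held none. A match describes the sequence only. Binding of STAT5 and its part in the difference of Igfals were not tested. The motif was in 8.30% of all windows and in none of the windows of the 8 genes of the set that have one, Insr not being in the table. The FOXO motif GTAAACA, searched on both strands, was in none of these 8 windows and in 3.65% of all windows. The second Igfals window also held 1 match each to GTAAACA and GGGCGG, left in lower case.

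Of 8 tested adaptor genes other than Irs2, Sh2b2, which encodes the adaptor APS of the insulin receptor, was higher (log2 difference 0.57, SE 0.14, adjusted p = 0.0171 from limma). Its adjusted p was 0.0538 without knock-out mouse 4 and 0.0531 with quantile normalization. Irs1, the adaptor most used in muscle, had a log2 difference of 0.33 (adjusted p = 0.26). None of 6 tested genes for receptor inhibitors passed the threshold.

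Among 13 genes for PI3K, Akt and their phosphatases, 1 was higher and 2 were lower. Pik3ca, the catalytic subunit p110α, was at 11.60, 11.60, 10.86, 11.25 and 11.54 in wild-type mice and between 11.82 and 11.88 in knock-out mice, without overlap. Its log2 difference of 0.48 (SE 0.13, adjusted p = 0.0266 from limma) lost its adjusted p under 0.05 without any 1 of the 5 knock-out mice or without wild-type mouse 4, with 0.0645 as the highest of these values, and was 0.0684 with no limit on expression. Akt1 had 10.87, 10.96, 11.66, 10.73 and 10.89 in wild-type mice and between 10.27 and 10.49 in knock-out mice. It was lower by a log2 difference of -0.61 (SE 0.15, adjusted p = 0.0151), and -0.45 without wild-type mouse 3. The Akt phosphatase gene Phlpp1 was lower as well (log2 difference -0.41, adjusted p = 0.0142), and its values did not overlap between genotypes. Akt2, the main isoform of insulin action in muscle, had a log2 difference of -0.42 that did not pass (adjusted p = 0.0645), although the genotypes did not overlap. Its difference was -0.27 without wild-type mouse 3 and passed there (adjusted p = 0.0105), as it did with quantile normalization (adjusted p = 0.0321). Without this mouse Pik3cd (log2 difference -0.47, adjusted p = 0.00807) and Inppl1 (0.22, adjusted p = 0.0332) passed as well.

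Of 12 genes of the mTOR complexes and their targets, Deptor, an inhibitor of mTOR, was lower. It had 11.79, 12.00, 11.30, 11.63 and 11.84 in wild-type mice and 11.22, 10.80, 11.13, 10.85 and 10.90 in knock-out mice 1 to 5. No values overlapped, and the log2 difference was -0.73 (SE 0.13, adjusted p = 0.00203 from limma). None of 6 FOXO and GSK3 genes and none of 6 genes of glucose uptake passed, and Foxo1 had a log2 difference of -0.051 and the insulin-dependent glucose transporter gene Slc2a4 one of -0.27 (adjusted p = 0.152). The kinase gene Gsk3a was below all wild-type values in every knock-out mouse, with a log2 difference of -0.44 (adjusted p = 0.0793), and without wild-type mouse 3 it had -0.27 and passed (adjusted p = 0.0181). Without this mouse Eif4ebp1, a target of mTOR in translation, also passed (log2 difference 0.34, adjusted p = 0.028).

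In the family of Igf2bp2, Igf2bp3 was the only other tested gene. It had values near the limit on expression, 3.24 to 3.91 in wild-type and 3.08 to 3.31 in knock-out mice, and a log2 difference of -0.46 (SE 0.13, adjusted p = 0.0333 from limma), opposite in sign to Igf2bp2. Its adjusted p rose above 0.05 in 7 of 10 fits that left out 1 mouse, to at most 0.0828, among them the fit without wild-type mouse 3 (0.0544). It was also above 0.05 with Y-linked transcripts as a covariate (0.092) and with no limit on expression (0.0718). Igf2bp1, and Hmga2, a known activator of Igf2bp2, were under the limit on expression, with at most 0.47 for Hmga2, and Lin28b was listed at 0.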

How the data were processed

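RNA-seq of gastrocnemius muscle of 5 desmin knock-out and 5 wild-type mice was analysed, grouped by sample title. Per the labels, the submitters' processing notes list cutadapt 2.5, STAR 2.5.4a, Subread 1.6.1, featureCounts and DESeq2, with GRCm38. The table deposited by the authors holds rlog values (log2 scale), and the settings of the transformation are not given in the sources used here. The table's 10 sample columns were used. No counts were used, so depth and counting error are unknown.

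Symbols, positions and exonic lengths came from GENCODE M21 (54165 of 54232 genes had a symbol). The limit on expression was a mean of log2(10). Testing used limma (3.58.1, under R 4.3.3) with a mean-variance trend, two-sided, with Benjamini-Hochberg adjustment. A test on counts, as used by the authors, was not possible on these values. Single genes were also tested by exact permutation. The fit was tested on simulated data. Where nothing shows separate handling, p-values measure the spread between these samples.

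The members, gene lists and tests were chosen with earlier results of these data known. Genes named were the 9 genes, Des, up to 4 pathway genes per role with the smallest adjusted p under 0.05, all other ligand, receptor and binding protein genes, and up to 3 genes closest in pattern to each of the 9. Further genes were named after their values were seen. They are genes under the limit on expression, pathway genes that did not pass, and markers. 1 pathway gene is not reported here. Promoter windows came from RefSeq (GRCm38.p6, 8 of 9 genes matched). Alternatives were leaving out each mouse, sample weights, the replicate number as a block, a covariate of Y-linked transcripts, quantile normalization, centring on the median, 1 prior variance for all genes, limits of log2(50) or none, and, for counts of genes, an adjusted p under 0.01.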

Additional observations from a re-analysis of the deposited data

Results flagged for a closer look

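In 42 groups of 5 mice (each genotype for 21 genes), 5 had a mouse far from the other 4 by Dixon's criterion. Chance gives about 1 in 20 groups, or 2.1, but all genes share the same 10 mice, so this number is only a rough guide. Knock-out mouse 3 was low for Igf2bp2 (rlog value 7.44, the others 8.20 to 8.47) and for Igfbp7 (9.99, the others 10.49 to 10.65). Wild-type mouse 3 was low for Igf2r (10.74, the others 11.55 to 11.74) and high for Akt1 (11.66, the others 10.73 to 10.96). It also stood far from the others in genes outside these 21, such as Gsk3a (12.49, the others 11.63 to 11.68) and Akt2 (13.88, the others 13.06 to 13.19). Knock-out mouse 1 was high for Phlpp1 (8.07, the others 7.92 to 7.96).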

How the results depend on the processing

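For the 9 genes, 70 of 72 differences under the 8 fixed alternatives kept their direction and their side of the threshold. Sample weights brought Irs2 past it (-0.78, adjusted p = 0.00955 from limma) and so raised the count of the 9 genes past the threshold to 2, that of the pathway list to 29 and that of all tested genes to 4220. Median centring reversed Igfbp6 (-0.041). An adjusted p under 0.01 left 6 pathway genes and 994 of all tested genes. With each mouse left out in turn, 81 of 90 differences kept direction and call, and 9 changed sign. The log2 differences ranged from -0.023 to 0.15 for Igf1, 0.097 to 0.36 for Igf1r, 0.16 to 0.41 for Insr, -0.45 to -0.021 for Irs2, -0.26 to 0.024 for Igfbp3, -0.40 to -0.14 for Igfbp4, -0.066 to 0.091 for Igfbp6, 0.0031 to 0.17 for Igfbp7 and 0.83 to 1.08 for Igf2bp2. The counts ranged from 1 to 1 for the 9 genes, 8 to 17 for the pathway list (17 without wild-type mouse 3) and 1400 to 2496 for all tested genes. With the replicate number as a block, 1 of the 9 genes, 11 pathway genes and 1579 of all tested genes passed. Correlations of same-numbered mice were between -0.22 and 0.067, so the numbers were not taken to pair the mice. The causes of these changes were not tested. Depth could not be assessed from rlog values.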

Other observations

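Cish, a feedback inhibitor gene that growth hormone and cytokines induce through STAT5, was chosen here after its values were seen. Its rlog values were 10.66, 10.83, 7.75, 8.19 and 9.60 in wild-type and 9.31, 7.18, 8.59, 7.16 and 7.32 in knock-out mice 1 to 5. Its log2 difference of -1.49 was the largest of the 64 tested pathway genes, but so was its standard error of 0.60, and it did not pass (adjusted p = 0.121 from limma). Without wild-type mouse 3 it was -1.91 (adjusted p = 0.0277), and with sample weights -2.83 (adjusted p = 4.7e-05). These weights were highest for knock-out mice 4 (4.21) and 5 (3.22) and, among wild-type mice, for mice 1 (1.77) and 2 (2.19). Wild-type mice 1 and 2, the highest for Cish, were also the highest of all mice for Irs2, with 11.43 and 10.91.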
